A study of Mus musculus with 6 samples.

Results

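The 8 genes Wnt2, Wnt9b, Rspo3, Bmp2, Bmp6, Hgf, Met and Inhbb were followed in liver non-parenchymal cells of mice with nonalcoholic steatohepatitis (NASH) that received vehicle or ginkgetin. They were chosen by name, as secreted factors that liver vessel cells and stellate cells give to their neighbours plus 1 receptor, and all 8 were rows of each of the 6 count tables, out of 19349 genes shared by the tables. Non-parenchymal cells are the cells of the liver other than hepatocytes. They were captured in droplets and sequenced cell by cell on the 10x Genomics Chromium system, which counts unique molecular identifiers (UMIs), tags that mark single RNA molecules. Male C57BL/6J mice had been fed a high-fat diet, and both groups shared this diet, so no lean control entered the comparison. The control group received vehicle, and the ginkgetin group received ginkgetin, a plant biflavone, at 10 mg/kg/day by gavage, with 3 libraries per group. The labels number the libraries but do not tie each to 1 animal, so p-values measure the spread between these libraries.

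Endothelial cells of the liver sinusoids line the small vessels between the plates of hepatocytes, and those near the central vein secrete Wnt2, Wnt9b and Rspo3, which keep the pericentral gene programme of hepatocytes switched on. Wnt ligands bind Frizzled receptors and Lrp co-receptors, and R-spondins prolong that signal by removing the ubiquitin ligases that take the receptors off the surface. Bmp2 and Bmp6, members of the TGF-beta superfamily, are made by the same vessel cells and drive hepcidin, the hormone of iron balance, in hepatocytes. Inhbb encodes the beta B chain, which pairs to form activin B and inhibin B. Hgf, a growth factor for hepatocytes, is secreted mainly by stellate cells and endothelial cells, and Met is its receptor tyrosine kinase.

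Annotated positions were read from GENCODE vM21 on GRCm38, the build named in the submitters' processing notes. Wnt2 lies on chr6:17988940-18030585 on the minus strand and Met on chr6:17463800-17573980 on the plus strand of the same chromosome. Wnt9b lies on chr11:103727364-103749821 on the minus strand. Rspo3 lies on chr10:29452416-29535867 on the minus strand and overlaps an antisense gene, Gm48159, and Gm20276 on the same strand. Bmp2 lies on chr2:133552159-133562885 on the plus strand. Bmp6 lies on chr13:38345107-38500302 on the plus strand and overlaps an antisense gene and Txndc5 on the other strand. Hgf lies on chr5:16553495-16620152 on the plus strand and overlaps Gm43489 and Gm42975 on the same strand, and Inhbb lies on chr1:119415465-119422248 on the minus strand. How the counting used strand is not given in the sources used here, so reads of Rspo3 and Bmp6 could not be told from those of their antisense neighbours, and the levels of Rspo3 and Hgf are uncertain where the counting could split reads with the genes they overlap.

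Promoter sequence from RefSeq (GRCm38.p6) was matched for 6 of the 8 genes, and those of Rspo3 and Bmp2 were not analysed here. GATA4 is a transcription factor known for keeping sinusoidal endothelial identity, so the 250 bases upstream of each start were searched on both strands for AGATAA and for 3 close forms of it. These were AGATAG, which ends in the other purine, then TGATAA, which begins with T, and lastly the form with both of these changes, TGATAG. At least 1 of these occurred in 26.54% of 32851 mouse promoters and in those of Inhbb, Wnt2 and Hgf. The sequences of these 3 are shown because Inhbb and Hgf, with Wnt2, carry the pericentral comparison. Each runs 5′ to 3′ on the gene's strand and ends at the base before the start, and capitals mark the GATA match, which in Inhbb reads on the other strand. Inhbb is chr1:119422249-119422498, minus strand, Wnt2 is chr6:18030586-18030695, minus strand, shown only outside annotated exons, and Hgf is chr5:16553245-16553494, plus strand.
Inhbb: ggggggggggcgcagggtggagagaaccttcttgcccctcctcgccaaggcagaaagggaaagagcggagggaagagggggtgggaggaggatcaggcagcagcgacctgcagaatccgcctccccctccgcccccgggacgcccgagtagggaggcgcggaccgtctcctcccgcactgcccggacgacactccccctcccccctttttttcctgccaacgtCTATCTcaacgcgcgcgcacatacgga
Wnt2: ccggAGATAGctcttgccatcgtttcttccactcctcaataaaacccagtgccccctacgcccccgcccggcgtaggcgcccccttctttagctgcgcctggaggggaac
Hgf: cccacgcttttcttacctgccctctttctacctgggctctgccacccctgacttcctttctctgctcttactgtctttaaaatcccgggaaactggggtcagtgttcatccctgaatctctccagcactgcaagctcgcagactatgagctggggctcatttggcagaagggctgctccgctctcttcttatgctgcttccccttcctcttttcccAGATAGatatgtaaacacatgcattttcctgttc
The GC-rich motif GGGCGG occurred in 32.74% of promoters and in those of Bmp6, Inhbb, Met, Wnt2 and Wnt9b. CAGACA, a Smad element, occurred in 17.13% and among the members in that of Met. CTTTGA, a core of the TCF site (13.83%), and CCGGAA, an ETS core (12.03%), occurred in none of the 6. These matches describe letters in these windows and nothing about binding.

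After quality control 27544 of 33168 barcodes were kept, and library totals ranged from 13128697 to 61796882 UMIs. Clusters were given a class name with the suffix -like from known markers, and levels are CPM, the counts of a gene divided by all counts of that class in a library and scaled to 1e+06. Replicate 3 of both groups differed from replicates 1 and 2 in its barcode set and in its version of gene symbols, and was deeper per cell, with medians of 8412 and 6262 UMIs against 2483 to 4365 in the others. Any 2 libraries shared 0 to 85 barcodes. The 7970 endothelial-like cells fell into clusters that separated by group and by replicate set. Clusters led by Ehd3 and Gpr182 and by Kit and Wnt2 held 37.62% and 33.92% of ginkgetin cells against 1.686% and 0.9116% of vehicle cells, and a cluster led by Fabp4, Lyve1, Ctgf and Inhbb held 68.46% of vehicle cells against 1.177%. The first 2 of these held 0 cells of replicate 3 and the third held 3. A cluster led by Selenop, with Bmp6 among its leading genes, held 16.69% of ginkgetin and 1.641% of vehicle cells, and 1 led by Cavin2 and Cebpd held 2.978% and 16.73%, and all cells of both came from replicate 3 (36 vehicle and 964 ginkgetin cells in the former, 367 and 172 in the latter). The sixth, led by Edn1 and Vwf, held 7.618% and 10.57%.

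Endothelial-like cells were therefore divided again after centring each library. The 8 genes, the genes of the pathway lists described below and the markers of the endothelial subsets were left out of this step. A pericentral subset of 3316 cells was named from Kit, Cdh13 and Ptgs1, and a periportal subset of 2055 cells from Efnb2, Ntn4, Msr1, Mecom, Adam23 and Efnb1. A vascular subset of 1001 cells came from 2 clusters, 987 cells with Vwf, Cd34, Ly6a and Edn1 and 14 cells with Vwa1, Cd34 and Ly6c1. The 987 cells also met the periportal markers Efnb2, Dll4, Ltbp4, Ntn4, Mecom and Efnb1. A further subset of 1493 cells led by Esm1 and Lyve1 had too few markers of any zone and stayed unnamed. The pericentral name thus rested on 3 markers, the fewest allowed, and the fold that counted as detected was set after seeing the data. Stellate-like cells numbered 181, and vehicle 1, with 6 of them, was left out, so stellate comparisons were 2 libraries against 3.

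Of all UMIs of each gene, endothelial-like cells held 95.3% for Bmp2, 94.1% for Wnt2, 93.6% for Inhbb, 92.8% for Bmp6 and 91.0% for Wnt9b, so these 5 were mainly endothelial transcripts among the cells captured. Rspo3 and Hgf were divided between classes. Endothelial-like cells held 60.6% of Rspo3 UMIs and stellate-like cells 24.8%. For Hgf the shares were 50.9% in endothelial-like, 20.9% in macrophage-like and 20.1% in stellate-like cells. Met, the receptor, was outside the endothelium, with 31.0% of its UMIs in cholangiocyte-like, 21.3% in monocyte-like, 18.5% in dendritic-like, 13.8% in macrophage-like and 2.0% in endothelial-like cells. Such shares depend on how many cells of each class were captured, and they differed between groups. Macrophage-like cells held 35.8% of Hgf UMIs with vehicle and 4.51% with ginkgetin, and for Met monocyte-like cells held the most with vehicle (26.9%) and cholangiocyte-like cells the most with ginkgetin (43.7%).

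**Figure D1:**
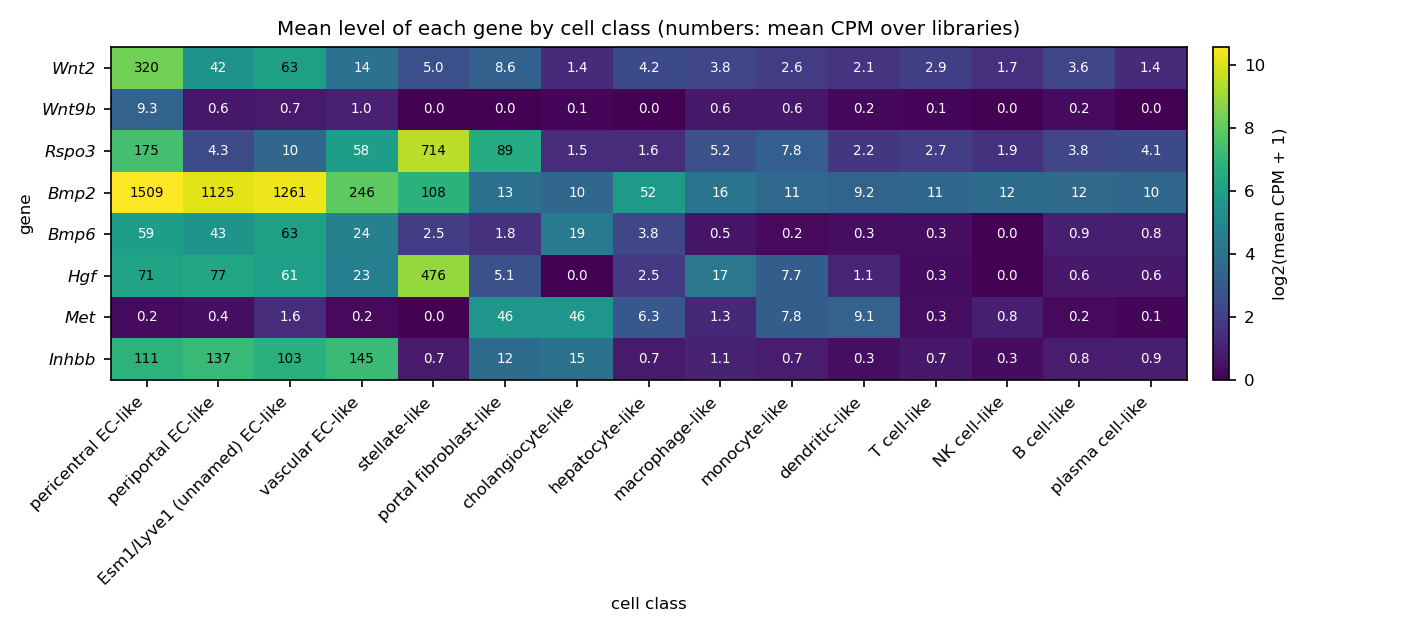
Mean level of each of the 8 genes (rows) in each cell class (columns), as CPM averaged over the libraries with at least 10 cells of the class, with colour on the log2(mean CPM + 1) scale. The 4 left columns are endothelial subsets: Wnt2 stands at 320 CPM in the pericentral subset, Rspo3 and Hgf are highest in stellate-like cells at 714 and 476 CPM, and Met is highest in portal fibroblast-like and cholangiocyte-like cells at 46 CPM in both.

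The map of levels by class showed which ligands were zonated. Wnt2 stood at 320 ± 109 CPM in the pericentral subset (SD over 6 libraries, both groups together), 63.3 ± 31.9 in the Esm1 Lyve1 subset, 42.2 ± 25.4 in the periportal subset and 14.4 ± 8.29 in the vascular subset. The lowest pericentral library, at 192 CPM, lay above the highest of the Esm1 Lyve1 subset, at 93.8 CPM, whereas the Esm1 Lyve1 and periportal levels overlapped. Wnt9b too was highest there, at a level near detection, at 9.27 ± 9.27 CPM in the pericentral subset and under 1 CPM on average in the other 3. Rspo3 was highest in stellate-like cells at 714 ± 412 CPM (n = 5), then in the pericentral subset at 175 ± 73.6 CPM and portal fibroblast-like cells at 89.0 ± 31.8 CPM (n = 5), and the ranges of neighbours in this order overlapped. In the periportal subset Rspo3 averaged 4.3 CPM. The Wnt and R-spondin ligands were therefore highest, among endothelial subsets, in the one named pericentral without their use.

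Bmp2 stood at 1509 ± 620 CPM in the pericentral, 1261 ± 467 in the Esm1 Lyve1 and 1125 ± 498 in the periportal subset, which overlapped, and at 246 ± 94.0 CPM in the vascular subset. Inhbb stood at 145 ± 83.0 CPM in the vascular, 137 ± 107 in the periportal, 111 ± 99.4 in the pericentral and 103 ± 91.0 CPM in the Esm1 Lyve1 subset, where the SD takes in both groups. With vehicle alone the 4 means lay between 168 and 216 CPM and the ranges overlapped. With ginkgetin alone they ran from 26.6 ± 12.1 in the pericentral to 101 ± 67.3 CPM in the vascular subset (n = 3), and the vascular level was the higher in each of the 3 libraries. Outside the endothelium Inhbb was next highest in cholangiocyte-like cells at 14.6 ± 8.29 CPM. Hgf stood at 476 ± 285 CPM in stellate-like cells (n = 5), above the 77.4 ± 34.9 CPM of the periportal and 70.7 ± 40.5 CPM of the pericentral subset, which overlapped, and at 17.1 ± 7.19 CPM in macrophage-like cells. Met stood at 46.1 ± 10.1 CPM in cholangiocyte-like and 45.8 ± 22.9 CPM in portal fibroblast-like cells (n = 5), and next at 9.08 ± 3.01 in dendritic-like and 7.76 ± 2.37 in monocyte-like cells.

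The design asks how ginkgetin changed these ligands in the cells that make them. In the pericentral subset Inhbb, the activin beta B chain, was lower in every ginkgetin library, and it was the 1 member that changed by the main test. Hgf stood lower, and Wnt2 and Wnt9b stood higher, in all 3 ginkgetin than in all 3 vehicle libraries, without passing that test. The test was edgeR's quasi-likelihood test on summed UMIs per library, and a call needed a fold above 2 and, by Benjamini-Hochberg adjustment over all genes, a p under 0.05. It called 0.318% of the 8810 genes tested in this subset and 1 of the 6 members tested. Groups did not overlap for 16.4% of those genes. Bmp6 and Met were too low to pass the filter on counts.

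**Figure D2:**
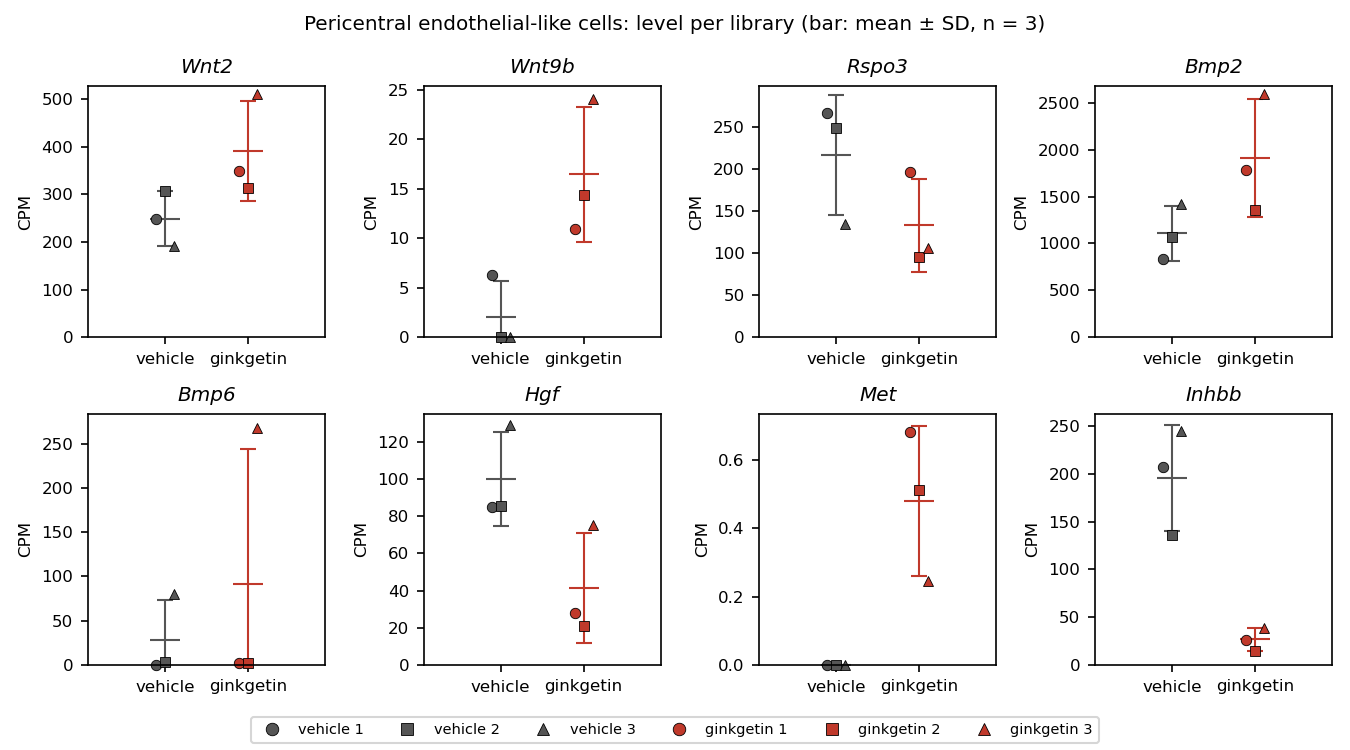
Level (CPM) of each gene in the pericentral endothelial-like subset, with 1 point per library, grey for vehicle and red for ginkgetin, and bars for mean ± SD (n = 3). Inhbb falls from 136 to 245 CPM in vehicle libraries to 14.9 to 39.1 CPM in ginkgetin libraries, Bmp6 is read almost only in replicate 3 of each group, and Met lies under 1 CPM throughout.

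Inhbb in the pericentral subset stood at 207, 136 and 245 CPM in vehicle 1, 2 and 3 and at 25.9, 14.9 and 39.1 CPM in ginkgetin 1, 2 and 3. The groups lay far apart, with means of 196 ± 55.3 and 26.6 ± 12.1 CPM (SD, n = 3). Inhbb fell by 3.05 on the log2 scale (SE 0.34, edgeR adjusted p = 0.0262), and with the replicate number as a block by 3.06 (adjusted p = 2.30e-05). The block assumes that libraries pair by number, which the labels do not state. DESeq2 gave an adjusted p of 2.11e-13. With any 1 library left out the fall stayed between 2.78 and 3.32, and the adjusted p rose to between 0.0559 and 0.277, so the call was lost each time, when 0 to 4 genes were called in all. Without either replicate 3 it fell by 3.36 (adjusted p = 0.00123). With each cell thinned to 1000 UMIs, which removes differences in depth, 15.9% ± 5.43 of vehicle and 2.22% ± 0.689 of ginkgetin cells had an Inhbb UMI (exact permutation test, two-sided, n = 3 per group, p = 0.1, the smallest this design allows, adjusted p = 0.267). Without thinning the shares were 44.6% and 10.7%, and 1 cell per group was too shallow to be thinned. In T cell-like cells, where no Inhbb is expected, the thinned share was 0% and 0.0604%, at median depths of 2630 to 6338 UMIs per cell. Beside these results, the 10 endothelial markers in the pericentral subset summed to 10310 to 15381 CPM in vehicle and 15580 to 21497 CPM in ginkgetin libraries (9 of 10 higher), and the 10 macrophage markers to 282 to 467 and 63.4 to 176 CPM (0 of 10 higher). Their part in the results was not tested.

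Inhbb had lower mean levels in the other endothelial subsets too. In the periportal subset it stood at 201, 134 and 312 CPM in vehicle 1 to 3 and at 41.1, 24.4 and 113 CPM in ginkgetin 1 to 3, a log2 difference of -2.03 (SE 0.50, edgeR adjusted p = 0.251), and with the replicate block it fell by 2.12 (adjusted p = 3.51e-04), when 2.71% of genes were called. In the Esm1 Lyve1 subset it stood at 184, 73.3 and 247 against 42.6, 14.4 and 60.0 CPM, a log2 difference of -2.33 (SE 0.52, adjusted p = 0.108), and with the block it fell by 2.31 (adjusted p = 2.71e-06), when 5.27% were. No library of ginkgetin reached the lowest of vehicle in either subset, and groups did not overlap for 14.7% of genes in the former and 17.9% in the latter. In the vascular subset the groups overlapped, at 184, 107 and 274 against 158, 27.1 and 119 CPM, and the log2 difference was -0.98 (SE 0.57, adjusted p = 0.901; 0.116 with the block). The main test called 0.147% of genes in the periportal subset, 0.587% in the Esm1 Lyve1 subset and 0 of 7469 in the vascular subset, and no member in these 3. In the vascular subset 1 of 5 members tested had an unadjusted p under 0.05 and DESeq2 and limma-voom called none, in the periportal subset 2 of 4 had one and DESeq2 called 1 (against 1.43% of genes), and in the Esm1 Lyve1 subset 1 of 4 had one and DESeq2 called 1 (against 2.09%). The difference of the pericentral from the periportal effect was itself tested, and Inhbb fell by 1.10 more on the log2 scale in the pericentral subset (SE 0.18, edgeR adjusted p = 3.71e-04; 0.552% of 9236 genes passed). Without ginkgetin replicate 3 this difference was -0.59 (adjusted p = 0.633), and without either replicate 3 it was -0.77 (adjusted p = 0.296), so the direction stayed and the call was lost.

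**Figure D3:**
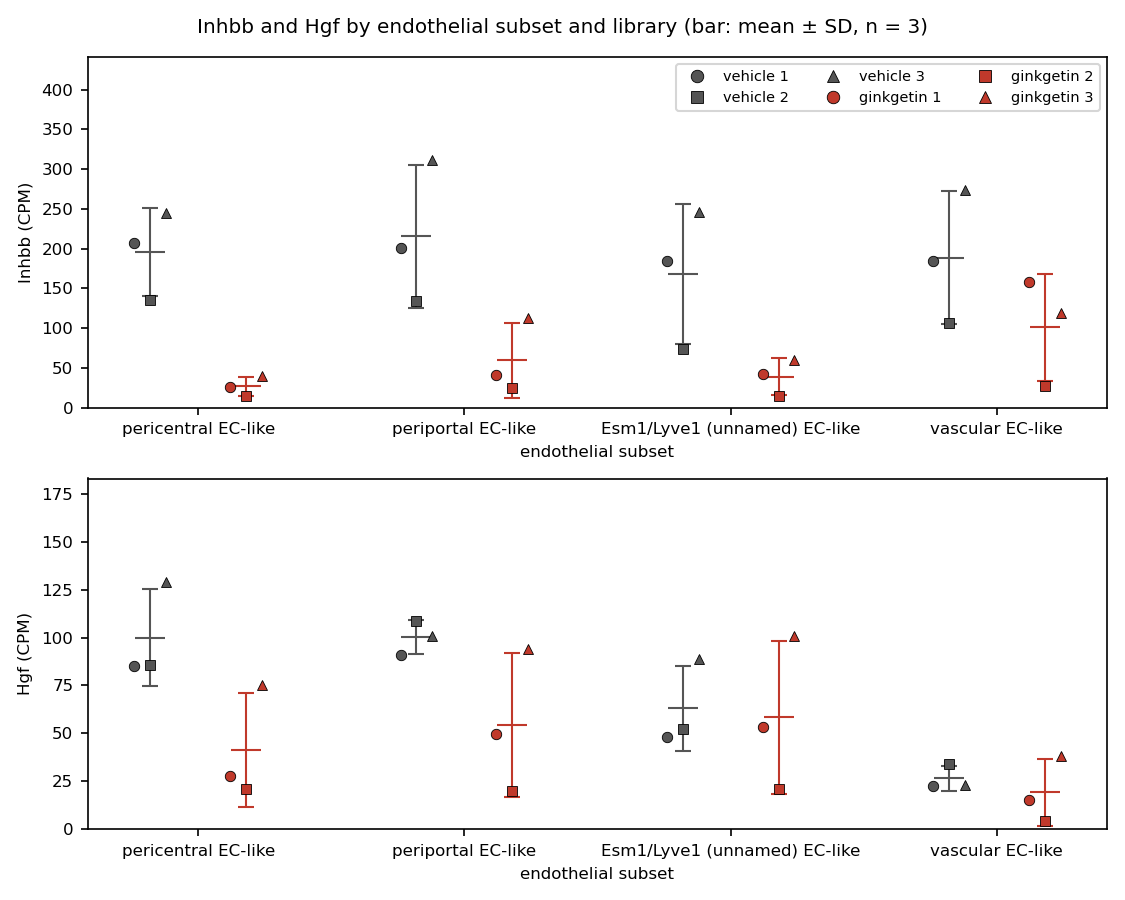
Inhbb (upper) and Hgf (lower) in CPM by endothelial subset, 1 point per library, grey for vehicle, red for ginkgetin, bars for mean ± SD (n = 3). For Inhbb the groups are apart in the first 3 subsets and overlap in the vascular one, and for Hgf they are apart in the pericentral subset and overlap in the other 3.

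All endothelial-like cells together gave more UMIs per library. Inhbb stood at 192, 114 and 263 CPM in vehicle 1 to 3 and at 44.9, 19.2 and 70.5 CPM in ginkgetin 1 to 3, a log2 difference of -2.24 (SE 0.45, edgeR adjusted p = 0.10), and with the replicate block it fell by 2.32 (adjusted p = 9.11e-04). None of the 6 members tested was called here by edgeR, against 0.691% of 10420 genes, while 4 of 6 had an unadjusted p under 0.05, DESeq2 called 2, against 3.14% of genes, and limma-voom 0. With the block 2 members, Inhbb and Wnt9b, were called, against 4.2% of genes.

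Hgf, the growth factor for hepatocytes, also had a lower level in ginkgetin pericentral cells. It stood at 85.1, 85.6 and 129 CPM in vehicle 1 to 3 and at 28, 20.7 and 75.5 CPM in ginkgetin 1 to 3. The groups did not overlap, and replicate 3 was the highest in both. The log2 difference was -1.47 (SE 0.41, edgeR adjusted p = 0.249). With the replicate block Hgf fell by 1.53 (adjusted p = 0.00460), where 2 of the 6 members and 3.58% of genes were called, and DESeq2 gave an adjusted p of 0.0355, when it called 2.25% of genes. Thinned to 1000 UMIs, 8.49% ± 3.15 of vehicle and 4.54% ± 4.06 of ginkgetin cells had an Hgf UMI (exact permutation p = 0.3, n = 3 per group), and 29.8% and 14.2% did without thinning. In the periportal subset Hgf stood at 91.0, 109 and 101 against 49.6, 19.8 and 94.3 CPM, a log2 difference of -1.08 (adjusted p = 0.524), and in the Esm1 Lyve1 and vascular subsets the groups overlapped, with log2 differences of -0.33 and -0.46.

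In stellate-like cells, the class with the highest Hgf level, the mean was higher with ginkgetin. Hgf stood at 282 and 359 CPM in vehicle 2 and 3 and at 434, 328 and 975 CPM in ginkgetin 1, 2 and 3. The groups overlapped, and ginkgetin 3 stood well above the rest. Ginkgetin minus vehicle came to 0.79 on the log2 scale (SE 0.54, edgeR adjusted p = 0.840). In macrophage-like cells Hgf stood at 12.2, 13.4 and 20.3 against 21.8, 7.60 and 27.0 CPM, from 146, 77 and 370 against 7, 5 and 56 UMIs. The groups overlapped, and the fitted log2 difference of -0.17 (adjusted p = 0.840) had the opposite sign to the difference of the mean CPM, 15.3 and 18.8.

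Met, the Hgf receptor, did not separate the groups in any class where it was tested. In cholangiocyte-like cells it stood at 40.6, 35.8 and 59.5 CPM in vehicle 1 to 3 and at 53.4, 35.6 and 51.5 CPM in ginkgetin 1 to 3, a log2 difference of 0.06 (SE 0.28, edgeR adjusted p = 0.953), where 0.176% of genes and none of the 2 members tested were called, with no unadjusted p under 0.05 among the members and none called by DESeq2. In dendritic-like cells it stood at 3.88, 8.23 and 9.71 against 11.8, 8.66 and 12.2 CPM (log2 difference 0.55, adjusted p = 0.542), and in monocyte-like cells at 10.1, 6.36 and 9.07 against 4.78, 5.91 and 10.3 CPM (log2 difference -0.38, adjusted p = 0.638). In macrophage-like cells Met did not pass the filter on counts, and it stood at 1.68, 2.61 and 3.24 CPM in vehicle 1 to 3, from 20, 15 and 59 UMIs, and at 0, 0 and 0.483 CPM in ginkgetin 1 to 3, from 0, 0 and 1 UMI. The groups did not overlap, as for 41.1% of the genes tested in that class. A count of 0 allowed up to 9.34 and 4.56 CPM in ginkgetin 1 and 2, above every vehicle level.

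Wnt2, a Wnt ligand of pericentral endothelium, was called in no class by the main test, although its level was higher in each ginkgetin library of the pericentral subset. There it stood at 247, 307 and 192 CPM in vehicle 1 to 3 and at 349, 313 and 512 CPM in ginkgetin 1 to 3. The groups came close, as vehicle 2 lay just under ginkgetin 2. The log2 difference was 0.45 (SE 0.29, edgeR adjusted p = 0.681). It became -0.11 when the 8 genes were kept in the clustering that made the subset, which then held 1223 cells in place of 3316. Here and below, keeping the 8 genes also kept the genes of the pathway lists. Over all endothelial-like cells Wnt2 stood at 101, 136 and 66.6 against 207, 164 and 269 CPM, a log2 difference of 0.86 (SE 0.36, adjusted p = 0.354). In the Esm1 Lyve1 subset it stood at 30.8, 65.4 and 18.4 against 93.8, 79.5 and 92.0 CPM, a log2 difference of 1.06 (SE 0.49, adjusted p = 0.431), and with the replicate block it rose by 1.21 (adjusted p = 0.0152), where 5.27% of genes were called. In the periportal subset the log2 difference was 1.18 (adjusted p = 0.590) and in the vascular subset -0.29 (adjusted p = 0.994). Thinned to 1000 UMIs, 18.2% ± 3.41 of vehicle and 29.8% ± 6.57 of ginkgetin pericentral cells had a Wnt2 UMI (exact permutation p = 0.1, n = 3 per group; 45.8% and 61.7% without thinning), beside 0.0293% and 0.439% of T cell-like cells.

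Wnt9b, the second pericentral Wnt, was close to the limit of detection. Its UMIs in the pericentral subset numbered 8, 0 and 0 in vehicle 1 to 3 and 16, 56 and 98 in ginkgetin 1 to 3, or 6.25, 0 and 0 against 10.9, 14.3 and 24.1 CPM. A count of 0 allows up to 5.58 CPM in vehicle 2 and 2.92 CPM in vehicle 3 (3 counts, counting error only). The groups did not overlap, although the 6.25 CPM of vehicle 1 lay near the 10.9 CPM of ginkgetin 1. On the log2 scale the difference was 2.43 (SE 0.88, edgeR adjusted p = 0.380; 0.0652 with the replicate block). With a block for the barcode set in its place Wnt9b rose by 2.41 (adjusted p = 0.0482), the third member called by that fit, which called 331 of the 8810 genes tested. Thinned to 1000 UMIs, 0.686%, 0% and 0% of vehicle and 0.506%, 1.24% and 2.39% of ginkgetin cells had a Wnt9b UMI, which overlapped (exact permutation p = 0.2, n = 3 per group; means of 0.534% and 5.22% without thinning), whereas thinned to 500 UMIs the groups did not overlap, at 0.229%, 0% and 0% against 0.675%, 0.551% and 1.79%. Over all endothelial-like cells Wnt9b stood at 2.01, 0 and 0 against 5.90, 6.88 and 13.1 CPM, a log2 difference of 3.12 (SE 0.97, adjusted p = 0.230), and with the block it rose by 3.22 (adjusted p = 0.0471). DESeq2 gave an adjusted p of 0.0171.

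Rspo3, the R-spondin of pericentral endothelium, had a higher mean level with ginkgetin in stellate-like cells and a lower one in pericentral cells. In stellate-like cells it stood at 389 and 197 CPM in vehicle 2 and 3 and at 1075, 781 and 1128 CPM in ginkgetin 1, 2 and 3, from 65, 85, 57, 224 and 355 UMIs. The groups were well apart, which held for 24.3% of genes in this class. The log2 difference was 1.70 (SE 0.48, edgeR adjusted p = 0.552), and with the replicate block Rspo3 rose by 1.72 (adjusted p = 0.0342). In the block fit ginkgetin 1 had no vehicle partner, so that difference came from libraries 2 and 3 of each group alone. DESeq2 gave an adjusted p of 0.0165. edgeR called none of the 3 members tested, against 0.0194% of 5157 genes, while 1 had an unadjusted p under 0.05, DESeq2 called 1 against 0.504% of genes, limma-voom 0, and the block 1 against 3.39% of genes. Among markers of other cell types in these cells, the 10 endothelial ones summed to 593 to 865 CPM in vehicle and 943 to 1839 CPM in ginkgetin (10 of 10 higher), the 7 portal fibroblast ones to 425 to 1407 and 181 to 189 CPM (0 of 7 higher, Pi16 at 0), the 10 macrophage ones to 276 to 290 and 56.6 to 143 CPM (2 of 10 higher), and the stellate ones to 29073 to 40005 and 32255 to 44373 CPM. Their part in the result was not tested.

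In the pericentral subset Rspo3 stood at 267, 249 and 135 CPM in vehicle 1 to 3 and at 197, 96.0 and 106 CPM in ginkgetin 1 to 3. The groups overlapped, since vehicle 3 lay below ginkgetin 1. The log2 difference was -0.87 (SE 0.46, edgeR adjusted p = 0.573), and with the replicate block -0.86 (adjusted p = 0.0320) at a fold under 2. Thinned to 1000 UMIs, 11.2%, 8.21% and 7.26% of vehicle and 6.58%, 5.03% and 5.18% of ginkgetin cells had an Rspo3 UMI, which did not overlap (exact permutation p = 0.1, n = 3 per group; means of 15.7% and 10.7% without thinning), whereas thinned to 500 UMIs the groups overlapped. In the vascular subset Rspo3 stood at 3.73, 167 and 1.43 against 155, 18 and 1.39 CPM, but 39 UMIs of vehicle 2 came from 1 cell and 41 of ginkgetin 1 from 2 cells, so those levels described single cells.

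**Figure D4:**
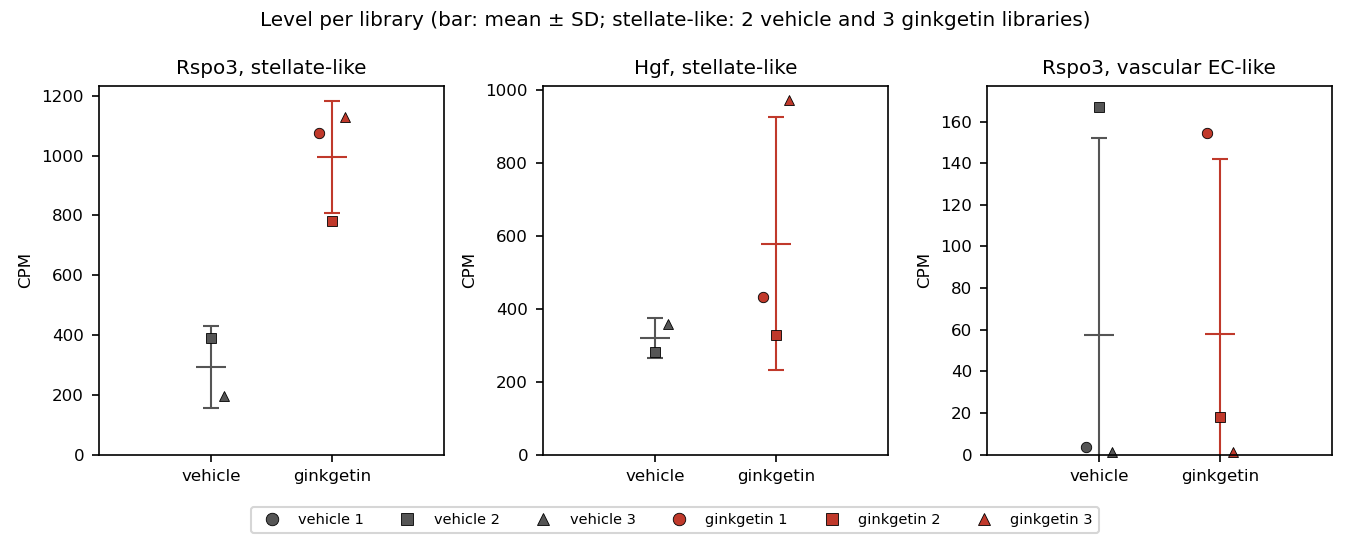
Rspo3 and Hgf in stellate-like cells and Rspo3 in the vascular subset, in CPM, 1 point per library, grey for vehicle and red for ginkgetin, bars for mean ± SD (2 vehicle and 3 ginkgetin libraries in stellate-like cells, 3 of each in the vascular subset). Rspo3 in stellate-like cells lies at 781 to 1128 CPM with ginkgetin against 197 and 389 CPM, and in the vascular subset 1 library of each group, at 167 and 155 CPM, stands far above the rest.

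Bmp2, the BMP ligand of sinusoidal endothelium, had a positive log2 difference in each of the 4 endothelial subsets, from 0.51 to 0.84, and was called in none. In the pericentral subset it stood at 838, 1065 and 1419 CPM in vehicle 1 to 3 and at 1785, 1359 and 2590 CPM in ginkgetin 1 to 3. The groups overlapped there, as vehicle 3 lay above ginkgetin 2. The log2 difference was 0.63 (SE 0.28, edgeR adjusted p = 0.497), and with the replicate block the adjusted p was 0.0472 at a fold under 2. Over all endothelial-like cells Bmp2 stood at 656, 839 and 940 against 1549, 1060 and 2002 CPM, with no overlap, as for 18% of genes, and a log2 difference of 0.76 (SE 0.26, adjusted p = 0.273). In the same libraries the 10 endothelial markers summed to 8588 to 12951 CPM with vehicle and 14282 to 19050 CPM with ginkgetin (9 of 10 higher), and the 10 macrophage markers to 209.9 to 379 and 62.9 to 170.0 CPM (1 of 10 higher). Their part in the Bmp2 difference was not tested. In the vascular subset the level was lower but the groups were again apart, at 167, 175 and 181 against 283, 261 and 411 CPM (log2 difference 0.82, SE 0.23, adjusted p = 0.585), as for 10.7% of genes.

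Bmp6, the partner ligand in hepcidin control, could not be compared between groups over all libraries. Its UMIs in endothelial-like cells numbered 0, 4 and 271 in vehicle 1 to 3 and 6, 19 and 1918 in ginkgetin 1 to 3, or 0, 2.61 and 80.9 against 1.97, 2.11 and 220 CPM. Both libraries of replicate 3, which had their own barcode set and gene symbols, held nearly all of them. In cholangiocyte-like cells too Bmp6 stood at 54.9 and 57.4 CPM in those 2 libraries and at 0 in the other 4. The gene did not pass the filter on counts, and the 2 replicate 3 libraries gave 1 value per group, 80.9 and 220 CPM, with no test.

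In macrophage-like cells 2 of the 4 members tested were called, against 10.7% of 10112 genes. Different clusters held most of this class in each group. Clusters led by Mmp12 and Trem2, by Cd300c2 and Cxcl2 and by Mmp12 and Clec4f held 1507, 714 and 373 vehicle cells against 61, 35 and 4 ginkgetin cells, 1 led by Marco and C6 held 6 against 506, and 1 led by Folr2 and Fabp7 held 375 against 284. Bmp2 stood at 3.02, 4.52 and 5.98 CPM in vehicle 1 to 3 and at 9.34, 42.6 and 32.4 CPM in ginkgetin 1 to 3, and it rose by 2.23 on the log2 scale (SE 0.45, edgeR adjusted p = 0.0250). Rspo3 stood at 1.34, 1.39 and 1.10 against 3.11, 18.2 and 5.80 CPM, and it rose by 2.37 (SE 0.62, adjusted p = 0.0482). Wnt2 stood at 0.839, 2.09 and 0.329 against 3.11, 10.6 and 5.80 CPM, a log2 difference of 2.25 (SE 0.81, adjusted p = 0.107), and with the replicate block it rose by 2.50 (adjusted p = 0.00803), when 16.2% of genes were called. Each of these levels was under that of endothelial-like cells, where the lowest library stood at 656 CPM for Bmp2, 66.6 CPM for Wnt2 and 44.8 CPM for Rspo3. In the same macrophage-like libraries all 10 endothelial markers were higher with ginkgetin, and their sum went from 199 to 218 CPM to 937 to 1749 CPM, with none at 0. Median depth per macrophage-like cell was 7537 to 16319 UMIs with vehicle and 2053 to 2347 UMIs with ginkgetin, from 696 to 1182 and 102 to 548 cells. The 9 stellate markers summed to 32.9 to 65.8 and 56.1 to 158 CPM. Their part in the result was not tested. In monocyte-like, dendritic-like, T cell-like and hepatocyte-like cells the log2 difference of Bmp2 was 2.51, 2.11, 2.63 and 3.41, and edgeR called no gene in any of these 4 classes, while Bmp2 had an unadjusted p under 0.05 in each and DESeq2 called it in the first 3, where it called 1.75%, 1.56% and 1.68% of genes. Of the 2 members tested in T cell-like cells, 2 had an unadjusted p under 0.05 and DESeq2 called 2. With the replicate block Bmp2 was called in monocyte-like (adjusted p = 0.0305), dendritic-like (adjusted p = 0.0385) and hepatocyte-like cells (adjusted p = 1.75e-05) and not in T cell-like cells (adjusted p = 0.0641). Hepatocyte-like cells were 3 libraries against 2, without ginkgetin 1, and held 4, 0 and 16 Bmp2 UMIs with vehicle and 4 and 51 in ginkgetin 2 and 3, the former from 12 cells. With the block vehicle 1 had no partner in this class and added nothing to the difference. The block called 3.08%, 2.97%, 4.41% and 0.53% of all genes in monocyte-like, dendritic-like, hepatocyte-like and T cell-like cells. With 1 library left out at a time the adjusted p of Bmp2 lay between 0.0269 and 0.145 and passed only without vehicle 3 or without ginkgetin 1, and that of Rspo3 lay between 0.0708 and 0.205.

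**Figure D5:**
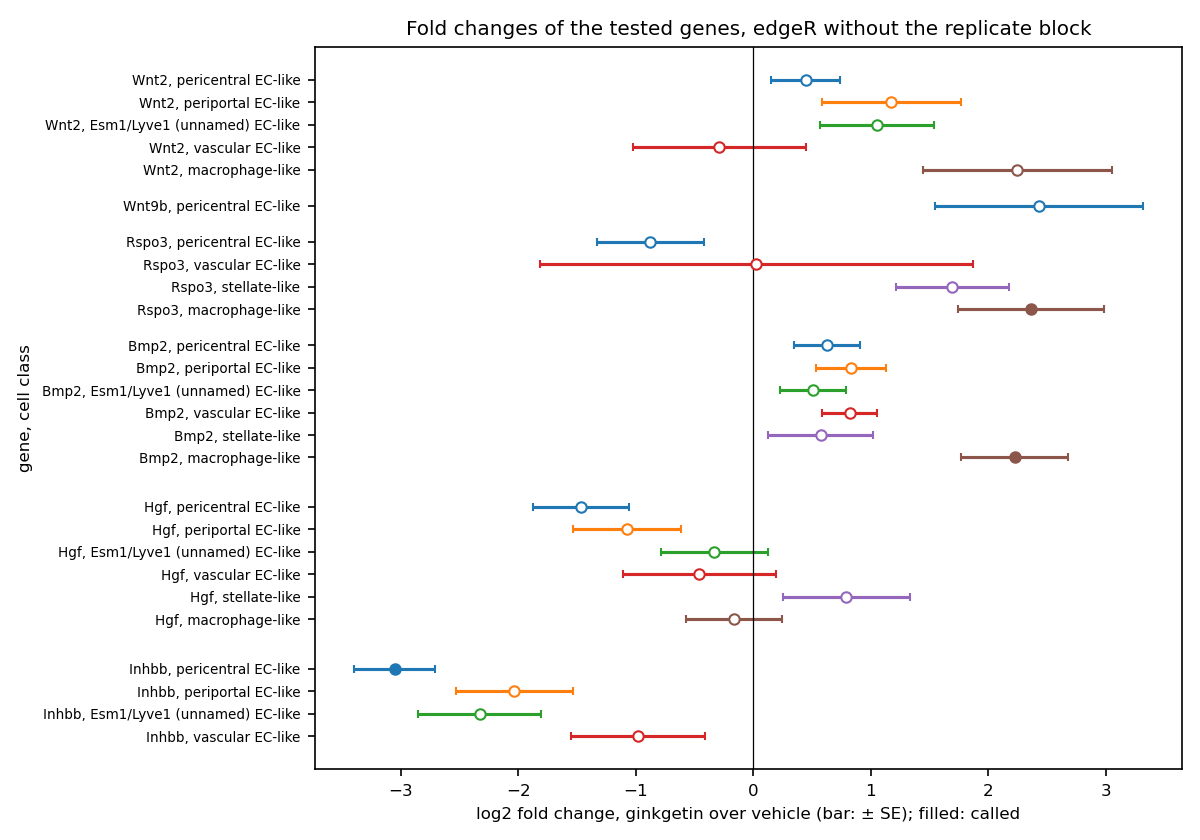
Log2 fold change of ginkgetin over vehicle (point) with its standard error (bar) for each gene tested by edgeR without the replicate block in the 4 endothelial subsets, stellate-like and macrophage-like cells, coloured by class, with filled points for called genes. Filled are Inhbb in the pericentral subset at -3.05 and Rspo3 and Bmp2 in macrophage-like cells at 2.37 and 2.23. All 4 endothelial subsets have Inhbb below 0 and Bmp2 above 0.

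The share of endothelial-like cells in each subset was compared as well. Each library had been centred before the subsets were made, which can itself set part of these shares. The pericentral subset made up 35.2%, 37.8% and 30.7% of endothelial-like cells in vehicle 1 to 3 and 46.5%, 43.1% and 44.2% in ginkgetin 1 to 3, a difference of 10.0 points (exact permutation test, two-sided, n = 3 per group, p = 0.1, adjusted over 4 subsets 0.2). The Esm1 Lyve1 subset made up 26.9%, 24.1% and 29.5% against 16.9%, 14.8% and 16.9% (p = 0.1 by the same exact test, adjusted 0.2). Both groups of libraries were apart for these 2 subsets and overlapped for the periportal subset, at 21.4% ± 3.71 and 26.6% ± 4.28 (exact p = 0.2, n = 3 per group), and the vascular subset, at 14.9% ± 4.18 and 11.3% ± 4.41 (exact p = 0.4, n = 3 per group).

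The other genes of the Wnt, BMP and activin and Hgf pathways were taken from 10 lists with 94 genes, of which 88 were in the tables. In endothelial-like cells 41 of the 88 could be tested and edgeR called 0, against 0.691% of all genes, while 6 had an unadjusted p under 0.05. Of these 41, 22 had a positive and 19 a negative log2 difference, with a median of 0.02 beside -0.01 over all genes. Nkd1, a Wnt target and inhibitor with the highest level among the listed Wnt targets, stood at 13.8, 22.8 and 19.7 CPM in vehicle 1 to 3 and at 47.9, 42.2 and 59.8 CPM in ginkgetin 1 to 3 (log2 difference 1.27, adjusted p = 0.0777). Wls, which carries Wnt ligands to the cell surface, stood at 112, 114 and 117 against 150, 152 and 184 CPM (log2 difference 0.34, adjusted p = 0.403). The groups did not overlap for either, as for 18% of all genes. With the replicate block 4 of the 41 were called, against 4.2% of all genes, named here after their values were seen: Nkd1 (1.31, adjusted p = 0.0110), Dkk3, a Dickkopf family member (2.07, adjusted p = 0.0246), Bmper, a BMP-binding protein (-1.69, adjusted p = 0.0117), and Hamp, which encodes hepcidin and belongs to hepatocytes (-2.52, adjusted p = 0.0373). In the pericentral subset the block called 3 of 31, against 3.58% of all genes: Lrp6, a Wnt co-receptor (1.04, adjusted p = 0.00694), Dkk3 (1.59, adjusted p = 0.0205) and Bmper (-1.85, adjusted p = 0.0128). The 7 hepatocyte markers summed to 93.7 to 370.4 CPM with vehicle and 32.1 to 344 CPM with ginkgetin in the pericentral subset. By list, 8 Wnt receptors and co-receptors were tested with a median log2 difference of 0.20, 9 BMP and activin receptors with -0.05, 6 BMP target genes with -0.18, 5 BMP and activin inhibitors with 0.02, 4 pericentral hepatocyte genes with -0.19 and 5 genes of Hgf activation and Met signalling with -0.47. The other 4 lists had 0 to 2 genes tested.

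In stellate-like cells 34 of the 88 listed genes could be tested, and edgeR called 0, while 6 had an unadjusted p under 0.05. There 19 had a positive and 15 a negative log2 difference, with a median of 0.21 beside 0.01 over all genes, and by list the median ranged from -1.49 over 2 Wnt inhibitors to 1.28 for 1 Wnt target gene. Bmp5, a BMP ligand, stood at 395 and 206 CPM in vehicle 2 and 3 and at 434, 520 and 705 CPM in ginkgetin 1 to 3 (log2 difference 0.83, adjusted p = 0.795). With the replicate block 4 were called, against 3.39% of all genes, in a fit where ginkgetin 1 had no vehicle partner and added nothing to the differences. Bmp10, another BMP ligand, rose by 2.16 (adjusted p = 6.66e-04), from 41.9 and 27.8 CPM to 151, 129 and 175 CPM. Dkk3, Id1, a BMP target, and Plat, the tissue plasminogen activator, fell by 2.29, 1.97 and 2.70 (adjusted p = 2.11e-04, 0.0212 and 2.34e-05). The portal fibroblast markers given with Rspo3 above were lower in the same libraries.

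The genes most like each member over 15 cell classes, by Pearson's r of mean levels on the log2(CPM + 1) scale, are given as a description, since the classes share libraries. The means also mix libraries with different versions of gene symbols, and Bmp6 was read almost only in replicate 3 of each group. Among the nearest to Wnt2 were AC126280.1 (0.952) and Kdr (0.945), a VEGF receptor. The nearest to Wnt9b were Plppr5 (0.937), Vwa7 (0.795) and Alox12 (0.769), and for Rspo3 Ntf3 (0.923), Gjc1 (0.911) and Piezo2 (0.900). For Bmp2 they were Lhfpl2 (0.992), Cyp4b1 (0.989) and Clec14a (0.985), and for Bmp6 Yes1 (0.975), Fam124a (0.967) and Cd59a (0.966). Inhbb was nearest to Sdpr (0.986), Shroom2 (0.981) and Cfap69 (0.980), Hgf to Epor (0.959), Emilin1 (0.949) and Hlx (0.939), and Met to Stxbp6 (0.927), Mapk13 (0.925) and Lsr (0.917).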

How the data were processed

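Liver non-parenchymal cells from 3 vehicle and 3 ginkgetin libraries were sequenced by the authors on the 10x Chromium system. The deposited tables hold raw UMI counts per gene and barcode, and the authors' aligner and counting settings are not given in the sources used here, beyond the builds GRCm38 and mm10. An extract protocol in the labels names a bulk kit instead. The 8 genes and all lists were chosen with earlier results of these data known.

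Barcodes with 250 to 5000 genes and under 5% mitochondrial UMIs were kept; the stated range is in UMIs and was tried as an alternative. Cells were scaled to 10000 UMIs, and 2000 variable genes, 30 principal components and 15 neighbours entered Leiden clustering at resolution 1 (scanpy 1.11.5, leidenalg 0.10.2, Python 3.11.15). A marker counted as detected at 25% of cells and a fold of 2 (1.5 for endothelial subsets, at resolution 0.5), and a name needed 3. There were 38 clusters, of which 6 (1475 cells) stayed unnamed. Scrublet called 0.0286% to 0.192% of cells per library, too few to rely on, and doublets were kept. Removing the cells with the highest doublet scores took stellate-like cells from 181 to 118, and those of vehicle 2 from 24 to 0. It took portal fibroblast-like cells from 105 to 7. A class needed 10 cells in a library.

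UMI counts were summed per library and class and tested in edgeR 4.0.16 (quasi-likelihood, TMM, filterByExpr; R 4.3.3), with DESeq2 1.42.0, limma 3.58.1 voom, a block for the replicate number, other filters and leaving out each library as alternatives. Checked on simulated endothelial-like counts of 10420 genes, with 100 genes changed at each fold, the test recovered 63% of genes at a fold of 4 and 99% at a fold of 8, with 9 false calls. The simulated libraries were independent draws without the difference of replicate 3, so these rates do not describe the test on the real libraries. The replicate block took the numbers as pairs. Deviations of same-numbered libraries from their group means correlated at 0.662, 0.634 and 0.910 over genes. Replicates 1 and 2 correlated across numbers as strongly (0.621 and 0.666), and replicate 3 with its own barcode set did not. These values do not pair replicates 1 and 2 by number, so p-values with the replicate block rest on an assumed pairing. Intervals and limits cover counting error only. Genes named were the 8 members, their 3 most similar genes with at least 10 CPM in a class, and the gene of highest level in each list; genes called with the block were added after their values were seen, and 1 of the similar genes is not reported here.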

Additional observations from a re-analysis of the deposited data

Results flagged for a closer look

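The effect of ginkgetin on Inhbb differed between 2 endothelial subsets by a test of the difference itself. The log2 fold change in the pericentral subset minus that in the periportal subset was -1.1 (SE 0.18, edgeR interaction term with Benjamini-Hochberg adjusted p = 3.71e-04). All 3 ginkgetin libraries had less Inhbb than all 3 vehicle libraries in both subsets, so the direction was shared and the size differed. With 1 library left out at a time the difference lay between -1.28 and -0.59, and without ginkgetin replicate 3, whose periportal level was 113 CPM against 39.1 CPM in its pericentral subset, the adjusted p was 0.633. This test was added after the data had been seen.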

How the results depend on the processing

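Of 508 recomputed log2 fold changes of the members, 445 kept their direction and their side of the threshold, 30 came to pass it, 18 ceased to pass it and 15 turned, the cause of which was not tested. DESeq2, the replicate block, a block for the barcode set and replicates 1 and 2 alone gave the following counts of members called: 2 each in endothelial-like cells (0 in the test used), 2, 2, 3 and 2 in the pericentral subset (1), 1, 1, 1 and 2 in the periportal subset (0), and 1, 2, 2 and 1 in the Esm1 Lyve1 subset (0). In stellate-like cells the first 3 gave 1 (0). In macrophage-like cells (2) limma-voom, the replicate block and the barcode-set block gave 3. There DESeq2 size factors, no gene filter and replicates 1 and 2 alone gave 1, and the UMI filter 0. The vascular subset gave 0 throughout. In the same order of settings the genes called were 327, 438, 466 and 358 in endothelial-like cells (72), 198, 315, 331 and 277 in the pericentral (28), 107, 202, 225 and 201 in the periportal (11), 28, 71, 94 and 77 in the vascular (0), 171, 431, 460 and 382 in the Esm1 Lyve1 subset (48) and 26, 175, 158 and 51 in stellate-like cells (1), and the 2 blocks gave 1637 and 1678 in macrophage-like cells (1082). limma-voom gave 35, 5, 26 and 0 genes in endothelial-like, periportal, Esm1 Lyve1 and stellate-like cells, no gene filter 22, 17, 4 and 101 in endothelial-like, periportal, vascular and stellate-like cells, the UMI filter 39, 49 and 62 in periportal, vascular and macrophage-like cells, a gate on endothelial markers 38 in endothelial-like cells, and keeping the 8 genes in the clustering 17 in the pericentral subset. Leaving out 1 library at a time gave 0 members in the pericentral subset and 0 to 1 in macrophage-like cells, and 0 to 1 genes in endothelial-like, 0 to 4 in pericentral, 0 to 9 in periportal, 0 to 3 in Esm1 Lyve1, 0 to 9 in stellate-like and 0 to 1199 in macrophage-like cells. The Inhbb difference between subsets ranged from -1.28 to -0.59, and was -0.77 without either replicate 3.

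These log2 differences turned: Wnt2 in the pericentral subset, -0.11 with the 8 genes kept in the clustering; Wnt2 in the vascular subset, 0.38 with limma-voom, 0.046 with the replicate block, 0.76 without a cell filter, 0.69 without vehicle replicate 1 and 0.02 without ginkgetin replicate 3 (from -0.97 to 0.69 over all single libraries left out); Rspo3 in the vascular subset, -0.0014 with DESeq2, -1.93 without a cell filter, and -0.67, -0.77 and -2.38 without vehicle replicate 1, vehicle replicate 3 and ginkgetin replicate 1 (from -2.38 to 4.29 over all); Hgf in the Esm1 Lyve1 subset, 0.060 without ginkgetin replicate 2 (from -0.90 to 0.060 over all); Bmp2 in stellate-like cells, -0.016 with replicates 1 and 2; and Hgf in macrophage-like cells, 0.06 without vehicle replicate 3 and 0.19 without ginkgetin replicate 2. Shares of cells with a UMI were listed for endothelial-like, pericentral and stellate-like cells only. Among these they turned for Met in endothelial-like cells (0.0491 points at 500 UMIs) and, without thinning, for Bmp2 and Hgf in stellate-like cells (-12.2 and -2.00 points). Outside them the mean shares of Hgf and Rspo3 in the Esm1 Lyve1 subset turned between depths too. Beyond the calls given beside the results, the replicate block changed no other call of a member described there. The UMI filter gave no pericentral or stellate-like value, and the marker gate and doublet removal none for stellate-like cells. Few counts limited Wnt9b, with 0 UMIs in 2 vehicle libraries, 1 of them the deep replicate 3, and Met in ginkgetin macrophage-like cells. With cells thinned to 1000 UMIs, Bmp6 had a UMI in 9.25% and 19.9% of endothelial-like cells of the replicate 3 libraries and in 0% to 0.366% in the other 4.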

Other observations

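UMIs of the endothelial ligands were also found in lymphocyte classes, which are not known as their source. With cells thinned to 1000 UMIs, Bmp2 UMIs occurred in 0.366% ± 0.134 of T cell-like cells with vehicle and 1.61% ± 1.02 with ginkgetin, and in 0.592% and 1.91% of B cell-like cells. The share for Wnt2 was 0.0293% and 0.439% and for Rspo3 0.0878% and 0.667% of T cell-like cells (exact permutation p = 0.1 for each of these 3 genes, n = 3 per group, adjusted p = 0.267). For Inhbb, which fell in pericentral cells, the shares in T cell-like cells were 0% and 0.0604%. In CPM, Bmp2 in T cell-like cells stood at 2.98, 2.17 and 4.12 in vehicle 1 to 3 and at 15.7, 28.8 and 10.7 in ginkgetin 1 to 3. Its source was not tested. Endothelial-like cells were 2194 of the kept vehicle cells and 5776 of the kept ginkgetin cells.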
